A study of Homo sapiens with 4 samples.

Results

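The genes described here are 10 that handle ammonia and build urea: CPS1, NAGS, OTC, SLC25A15, ASS1, ASL, ARG1, ARG2, GLUL and GLS2. They were picked by gene name from the 58302 genes listed in each library, and all 10 names were found once. HepG2 is a human liver tumour cell line, which the authors describe as hepatocellular carcinoma. It was labelled as wild type in genotype and grown in MEM with serum. The 4 libraries, each of another condition, came from cells kept 24 h in DMSO, 24 h in 1 mM melatonin, 48 h in DMSO and 48 h in 1 mM melatonin. DMSO is the vehicle. Since no condition has a replicate, the variation between cultures is unknown, and every interval below is a 95% interval that covers counting error only. Levels are given as FPKM, fragments scaled by gene length and library size, from which the reads behind each value could be recovered as whole numbers. Reads on genes numbered from 21616676 to 23086025 per library. The library size implied by the FPKM was below that number in each library, from 18357838 with DMSO at 24 h to 22205042 with melatonin at 48 h. What the authors divided by is not stated.

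The urea cycle turns ammonia, which is toxic, into urea in hepatocytes. In mitochondria CPS1 joins ammonia and bicarbonate into carbamoyl phosphate, with N-acetylglutamate from NAGS as its obligatory activator, and OTC adds the product to ornithine that SLC25A15 carries in. In the cytosol ASS1 and ASL turn the resulting citrulline into arginine, and ARG1 splits arginine into urea and ornithine. ARG2 is the mitochondrial arginase, best known outside the liver. GLUL fixes ammonia into glutamine and in liver is kept to cells around the central vein, while GLS2, the liver-type glutaminase, releases ammonia from glutamine on the periportal side.

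Markers of hepatocytes were present in each library and those of other cells were low or absent. All 10 hepatocyte products that were checked, such as ALB, APOA1 and TTR, had an FPKM of at least 1, and their summed FPKM ran from 11343 to 12287. Of 4 blood cell markers and 4 endothelial markers, none reached an FPKM of 1. Of 5 markers of fibroblasts or stellate cells, COL1A2, COL3A1 and DCN had 0 reads in each library and at most 1 of the 5 reached an FPKM of 1. The 5 together summed to an FPKM of 1.89 (DMSO) and 0.804 (melatonin) at 24 h and of 3.63 and 4.33 at 48 h. The mitochondrial genome's own genes took 20.0% (DMSO) and 16.6% (melatonin) of reads at 24 h, then 9.77% and 11.9% at 48 h. The summed FPKM of a library ranged from 337663 to 479234, so rescaling to TPM, in which each library has the same total, multiplies each ratio of 48 h over 24 h with DMSO by 1.42 and of melatonin over DMSO at 24 h by 1.13. Directions of the members were checked on TPM, on the sum of reads and on the sum of reads outside the mitochondrial genome, and are qualified where they differ. Values of partner genes are as deposited unless a scaling is named.

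On hg38, as the files place them, the mitochondrial members were CPS1 at chr2:210477682-210679107, NAGS at chr17:44004546-44009063, OTC at chrX:38352545-38421450, SLC25A15 at chr13:40789412-40810111, ARG2 at chr14:67619798-67651720 and GLS2 at chr12:56470944-56488414. The cytosolic members were ASS1 at chr9:130444929-130501274, ASL at chr7:66075798-66093558, ARG1 at chr6:131573144-131584332 and GLUL at chr1:182381704-182392206. GLUL and GLS2 lie on the reverse strand and the others on the forward strand, and all 10 are annotated as protein-coding.

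The cycle was unevenly expressed in HepG2 cells. GLUL was the highest member in each library, at an FPKM of 47.6 (DMSO) and 50.8 (melatonin) at 24 h and of 61.2 and 53.0 at 48 h. It lay at percentile 96.3 to 97.4 of all protein-coding genes. ASS1 came next, at 25.6 and 25.4 at 24 h and at 38.0 and 26.5 at 48 h. GLUL alone took 39.9% to 44.4% of the summed FPKM of the 10 genes, and that sum was 119, 121, 138 and 119 for DMSO and melatonin at 24 h and then at 48 h. At the other end stood OTC, the only enzyme that makes citrulline for the cycle. At 24 h it had 8 reads in the DMSO library and 3 in the melatonin library, and at 48 h 0 and 3. These gave an FPKM of 0.275 and 0.0933, then 0 and 0.0852, and for the 0 a floor of 3 reads corresponds to 0.0863 and the exact interval reaches 0.106. ARG1 and GLS2 were also below an FPKM of 1 in each library as deposited. The remaining 7 members passed that minimum in all 4 libraries.

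Between these ends, SLC25A15, ASL, CPS1, ARG2 and NAGS followed in that order with DMSO at 24 h, with neighbours whose intervals did not overlap. At 48 h with DMSO the order differed. ARG2 followed ASS1 at 11.5, next to ASL at 10.7 and SLC25A15 at 10.0, and the intervals of these neighbours overlapped. CPS1 and NAGS could not be told apart there either, at 2.89 and 2.65. The order also depends on the gene length used, which for GLUL is 9032 bp and for CPS1 10444 bp in the files. With the length of the Ensembl canonical transcript in GENCODE 44, which is 1532 bp for ASS1 and 7554 bp for GLUL, ASS1 at 75.7 stood above GLUL at 73.1 with DMSO at 48 h. In the other 3 libraries GLUL stayed first on that length. SLC25A15, at 8.87 with DMSO at 24 h, then stood below ASL at 18.9 and CPS1 at 11.4. ARG1 with DMSO, at 1.02 and 1.10, and GLS2 at 24 h, at 1.30 and 1.14, were above 1 on that length.

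**Figure D1:**
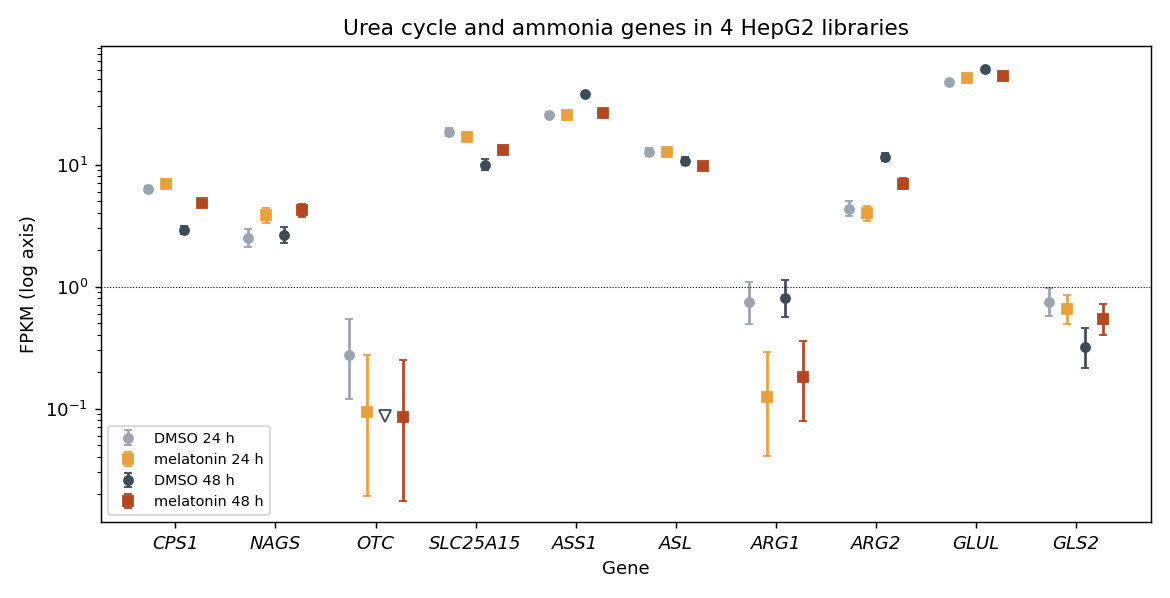
FPKM (log axis) of each of the 10 genes in the 4 libraries, with DMSO as circles and melatonin as squares. Bars are 95% exact Poisson intervals of the reads, the open triangle marks the floor of 3 reads for OTC with 0 reads, and the dotted line is an FPKM of 1. OTC, ARG1 and GLS2 lie below the line and GLUL is highest throughout.

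Melatonin was compared with DMSO at each time to see which genes the treatment altered. On the scale of log2((melatonin FPKM + 1)/(DMSO FPKM + 1)), 0 of the 7 members that reached an FPKM of 1 in 1 library or both changed 2-fold at 24 h, where 4.35% of all genes tested did. At 48 h 0 of 7 did as well, against 5.72% of all genes. Among protein-coding genes, to which all members belong, the shares were only 0.630% at 24 h and 2.39% at 48 h. The log2(FPKM + 1) scale understates changes of low genes. The plain ratio was therefore also taken for members with at least 10 reads in either library, which leaves out OTC. By that rule, chosen after the data were seen, ARG1 was past 2-fold at both times and no other member was, against 10.3% of all genes at 24 h and 16.3% at 48 h. ARG1 met the minimum of 10 reads through the DMSO libraries alone, where it was high, so its passing is a description and supports nothing.

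ARG1, the arginase of the hepatocyte cytosol, had 27 reads (DMSO) and 5 reads (melatonin) at 24 h, and 35 and 8 at 48 h. Its FPKM was 0.748 (interval 0.493 to 1.09) and 0.125 (0.0407 to 0.293) at 24 h, and 0.812 (0.566 to 1.13) and 0.183 (0.0792 to 0.361) at 48 h. In bulk RNA, fewer cells with a transcript and less of it per cell cannot be told apart. ARG1 was lower with melatonin at both times, and the intervals of the 2 treatments did not overlap at either time. The share of all genes that separate in this way was not computed. The ratio of melatonin to DMSO was 0.168 (0.0504 to 0.442) at 24 h and 0.226 (0.0905 to 0.495) at 48 h. Both intervals stayed below 1 on each of the scalings run. On the log2(FPKM + 1) scale the difference was only -0.64 and -0.61, and ARG1 did not reach the minimum FPKM. Within its span lies part of MED23, a subunit of Mediator, on the opposite strand, and the methods do not state whether strand was used in counting. MED23 had 1146 and 1674 reads at 24 h and 1340 and 1764 at 48 h (DMSO and melatonin), so it was higher where ARG1 was lower, and its exons share 0 bp with those of ARG1 in GENCODE 44.

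ARG2 differed from its isozyme. With 193 and 196 reads at 24 h its FPKM was 4.35 in DMSO and 4.0 in melatonin, a ratio of 0.919 (0.750 to 1.13). At 48 h it was 11.5 and 6.98 from 609 and 375 reads, a ratio of 0.608 (0.533 to 0.693). The difference was thus within counting error at 24 h and outside it at 48 h. Per length, ARG2 exceeded ARG1 in each library, by 5.81-fold (3.87 to 9.04) in DMSO and 31.9-fold (13.4 to 99.2) in melatonin at 24 h, and by 14.1-fold (10.1 to 20.5) and 38.1-fold (19.1 to 88.9) at 48 h. ARG2 overlaps VTI1B on the opposite strand over 904 bp of exons, 39.6% of its own exonic length in GENCODE 44. VTI1B was higher with melatonin at 48 h, at 6.62 against 5.10, while ARG2 was lower.

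The bases before the start of the arginase genes are shown as a description only, and any link to expression was not tested. They are the 250 bases before the RefSeq start on GRCh38.p14, 5′ to 3′ on the gene's own strand, which is the forward strand for both genes. ARG1 lies at chr6:131572976-131573225 and ARG2 at chr14:67619670-67619919. Capitals mark matches, on either strand, to TATAAA, the letters of the TATA box, to TGACGTCA, the cAMP response element, and to CCAAT, the box of that name. They also mark GGGCGG, the letters of the box bound by Sp factors, and TTGCAA, a short string searched for C/EBP factors. TTGCAA is not their full site, so a match to it does not show one.
ARG1: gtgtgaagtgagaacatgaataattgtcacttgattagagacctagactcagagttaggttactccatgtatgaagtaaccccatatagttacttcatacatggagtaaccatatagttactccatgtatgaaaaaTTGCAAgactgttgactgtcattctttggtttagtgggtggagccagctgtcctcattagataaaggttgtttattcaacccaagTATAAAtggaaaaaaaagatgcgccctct
ARG2: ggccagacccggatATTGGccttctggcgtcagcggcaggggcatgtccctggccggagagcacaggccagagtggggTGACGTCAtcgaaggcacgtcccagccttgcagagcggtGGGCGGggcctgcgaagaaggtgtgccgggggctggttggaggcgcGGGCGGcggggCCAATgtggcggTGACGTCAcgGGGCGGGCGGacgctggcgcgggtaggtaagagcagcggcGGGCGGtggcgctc
The ARG1 window held TATAAA 29 bases and TTGCAA 114 bases before the start and none of the other motifs, and its GC content was 37.6%. The ARG2 window held TGACGTCA 172 and 64 bases before the start, CCAAT on one strand or the other 236 and 76 bases before it, and 5 matches to GGGCGG, of which 2 overlap in part, with a GC content of 72.4%. Among all 35116 windows of that length, 10.7% held TATAAA, 4.73% TTGCAA, 1.65% TGACGTCA, 32.0% CCAAT and 42.6% GGGCGG, and 0.0541% held TGACGTCA at least 2 times. These motifs were chosen with the sequences in view, so the shares support nothing about either gene. The GC content was above that of 8.94% of all windows for ARG1 and of 84.6% for ARG2. All 10 genes had at least 1 window, and in these windows ARG2 alone held TGACGTCA. OTC was the only other member with TATAAA in them, which lay 192 bases before its start. For CPS1 the start of the canonical transcript in GENCODE 44 had no window, so the bases before it were not searched.

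CPS1 and NAGS, which start the cycle, had higher values with melatonin at both times. CPS1 had 1206 and 1458 reads at 24 h and 662 and 1124 at 48 h, which gave an FPKM of 6.29 (DMSO) and 6.88 (melatonin) at 24 h and of 2.89 and 4.85 at 48 h. Its ratio of melatonin to DMSO was 1.09 (1.01 to 1.18) at 24 h and 1.68 (1.52 to 1.85) at 48 h. The DMSO library of 48 h was the lowest of the 4 and the melatonin library of 24 h the highest. NAGS was higher with melatonin by a like factor at both times, at 2.51 and 3.83 at 24 h and at 2.65 and 4.23 at 48 h. Its ratios were 1.52 (1.22 to 1.91) and 1.6 (1.31 to 1.95), from 130 to 265 reads. SLC25A15, the ornithine carrier, was at 18.4 in DMSO and 16.8 in melatonin at 24 h, a ratio of 0.911 (0.814 to 1.02), and at 10.0 and 13.2 at 48 h, a ratio of 1.31 (1.15 to 1.5). For OTC the reads do not allow a comparison of treatments, and a difference was not detectable at this depth.

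Of the cytosolic enzymes, ASS1, which condenses citrulline with aspartate, was alike in the libraries of 24 h, at 25.6 and 25.4 from 1432 and 1569 reads. At 48 h it was 38.0 with DMSO and 26.5 with melatonin from 2544 and 1796 reads, a ratio of 0.697 (0.656 to 0.741). So the DMSO library of 48 h stood above the other 3, whose values lay between 25.4 and 26.5. ASL, which releases arginine from argininosuccinate, was at 12.7 and 12.6 at 24 h and 10.7 and 9.70 at 48 h, and its ratios of 0.990 (0.895 to 1.10) and 0.902 (0.813 to 1.00) covered 1. On TPM these became 1.12 (1.01 to 1.24) and 0.869 (0.782 to 0.965). The ratio of ASS1 at 24 h moved from 0.992 to 1.12 (1.04 to 1.20) on TPM and to 1.04 on the sum of reads, and those of SLC25A15 and ARG2 at 24 h to 1.03 and 1.04 on TPM. Pseudogenes of ASS1 held 15 to 34 reads per library, 1.75% at most of the reads of gene and pseudogenes together. The pseudogene ASLP1 held 18 to 27 reads, 3.50% at most, and ASL also shares 563 bp of exons with AC068533.4, which had at most 5 reads.

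The glutamine enzymes had small or sparse differences. GLUL was at a ratio of 1.07 (1.03 to 1.10) at 24 h from 7900 and 9309 reads, and of 0.867 (0.844 to 0.890) at 48 h from 12116 and 10631 reads. Its intervals are narrow because its reads are many, and they say nothing about cultures. GLS2 had 57 and 55 reads at 24 h and 29 and 50 at 48 h. Its FPKM was 0.750 and 0.655 at 24 h and 0.319 and 0.544 at 48 h, with ratios of 0.873 (0.592 to 1.29) and 1.70 (1.06 to 2.79). GLS2 is uncertain, since SPRYD4 on the opposite strand covers 77.1% of its exonic length. SPRYD4 itself lay between 1.04 and 1.20.

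Counted together, the interval of the ratio excluded 1 for 4 of 9 members at 24 h, where it did for 47.4% of all genes with at least 10 reads in either library. CPS1, NAGS and GLUL were on the higher side and ARG1 on the lower, on each scaling run, and on TPM the intervals of ASS1 and ASL excluded 1 as well. The median ratio of all genes with at least 50 reads in both libraries was 1.03 as deposited, 1.08 on the sum of reads and 1.16 on TPM. CPS1 at 1.09 and GLUL at 1.07 as deposited lay close to that median. Each scaling multiplies all genes alike, so holding on each does not set a member apart from the median. At 48 h the interval excluded 1 for 8 of 9 members, against 57.9% of all genes. Both counts include ARG1, which met the minimum of 10 reads through the DMSO libraries alone, where it was high, so they support nothing about ARG1. CPS1, NAGS, SLC25A15 and GLS2 were higher with melatonin and ASS1, ARG1, ARG2 and GLUL lower, and these directions too held on each scaling run. All 4 on the higher side act in mitochondria or their membrane, and of the 4 on the lower side ARG2 does while ASS1, ARG1 and GLUL are cytosolic. This grouping was made after the values were seen and was not tested. The DMSO library of 48 h had the lowest FPKM for CPS1, SLC25A15 and GLS2 and the highest for ASS1, ARG2 and GLUL. Their ratios at 48 h thus share 1 unreplicated library that also stood apart from the DMSO library of 24 h. Among the 7 members with an FPKM of at least 1, the median log2 fold change was -0.01 at 24 h and -0.13 at 48 h, beside 0.02 and -0.02 over all genes tested.

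**Figure D2:**
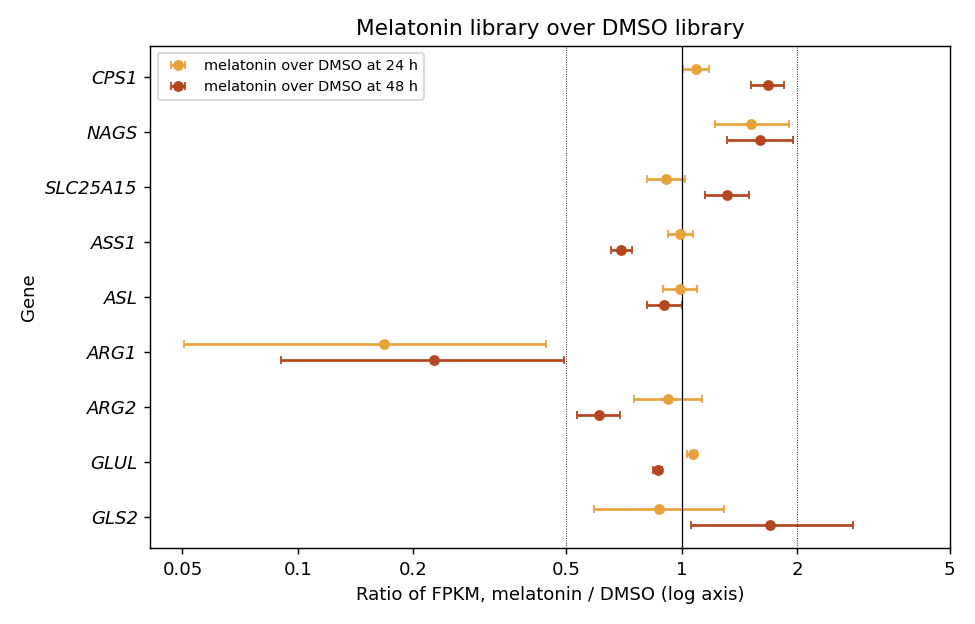
Ratio of FPKM with melatonin to FPKM with DMSO (log axis) at 24 h and 48 h for 9 of the 10 genes, with 95% exact conditional intervals of the reads. OTC is left out for its few reads, and dotted lines mark 2-fold. ARG1 lies below 0.5 at both times, while CPS1, NAGS, SLC25A15 and GLS2 lie to the right of 1 at 48 h and ASS1, ARG2 and GLUL to the left.

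The effects at the 2 times were set against each other as the log2 ratio of 48 h less that of 24 h. Its counting interval excluded 0 for 6 of 9 members, where it did so for 40.8% of genes with reads in each library. The difference was 0.62 (0.44 to 0.79) for CPS1, 0.53 (0.28 to 0.77) for SLC25A15 and 0.96 (0.11 to 1.81) for GLS2. It was -0.51 (-0.64 to -0.37) for ASS1, -0.60 (-0.94 to -0.25) for ARG2 and -0.30 (-0.36 to -0.24) for GLUL. On TPM the interval of GLS2, at 0.73 (-0.12 to 1.58), covered 0 and that of ASL, at -0.36 (-0.57 to -0.16), did not. TPM also moved CPS1 to 0.39, SLC25A15 to 0.30 and GLUL to -0.53. On FPKM as deposited NAGS at 0.07 (-0.35 to 0.49), ASL at -0.13 (-0.34 to 0.07) and ARG1 at 0.43 (-1.34 to 2.20) had intervals that covered 0, and that of ARG1 is wide.

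The libraries of 48 h and 24 h were then compared within each treatment. The DMSO libraries enter both this comparison and that of melatonin with DMSO, so their values are not independent and are given side by side only. With DMSO, 1 of 7 members changed 2-fold on the log2(FPKM + 1) scale. Of all genes tested 7.74% did, 3.50% in the upward direction, and of protein-coding genes 4.43% did. That member was ARG2, which rose from 4.35 to 11.5, a log2 fold change of 1.22 and a ratio of 2.64 (2.24 to 3.12). CPS1 stopped just short of the threshold, going from 6.29 to 2.89 with a log2 fold change of -0.91 and a ratio of 0.459 (0.417 to 0.506). SLC25A15 had a ratio of 0.544 (0.479 to 0.617), GLS2 of 0.426 (0.263 to 0.677), ASS1 of 1.49 (1.39 to 1.59) and GLUL of 1.28 (1.25 to 1.32). The interval excluded 1 for 7 of 9 members, against 60.0% of all genes. OTC went from 8 reads to 0, and the interval of that ratio reached up to 0.490, or 0.696 on TPM. By the plain ratio CPS1, ARG2 and GLS2 were past 2-fold, against 17.4% of all genes. On TPM the ratio was 0.652 (0.592 to 0.718) for CPS1 and 0.604 (0.373 to 0.961) for GLS2, still below 1 but short of 2-fold. NAGS was at 1.06 (0.834 to 1.34) as deposited and at 1.5 (1.18 to 1.90) on TPM. ASL was at 0.847 (0.765 to 0.939) as deposited and at 1.20 (1.09 to 1.33) on TPM, so its direction depends on the scaling. On TPM the median of all genes tested shifted to 0.46, from 0.00 as deposited. The ratio of ASS1 became 2.11 (1.98 to 2.25) on that scale and passed 2-fold.

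With melatonin, 0 of 7 members changed 2-fold between the times, against 4.15% of all genes tested and 0.925% of protein-coding genes. ARG2 was at a ratio of 1.75 (1.47 to 2.09), which was 2.12 (1.78 to 2.53) on TPM, and CPS1 was at 0.704 (0.651 to 0.762), SLC25A15 at 0.784 (0.697 to 0.881) and ASL at 0.772 (0.697 to 0.856). The last 2 covered 1 on TPM, and the interval of ASS1 at 1.05 (0.977 to 1.12) excluded 1 on every scaling but the deposited one. NAGS was at 1.11 (0.921 to 1.33) as deposited and at 1.34 (1.11 to 1.61) on TPM, and its interval also excluded 1 on the sum of reads. The interval excluded 1 for 5 of 8 members with at least 10 reads in either library, against 50.4% of all genes, and by the plain ratio none of the 8 was past 2-fold, against 11.4%. GLUL at 1.04 (1.01 to 1.07) was the fifth of these.

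**Figure D3:**
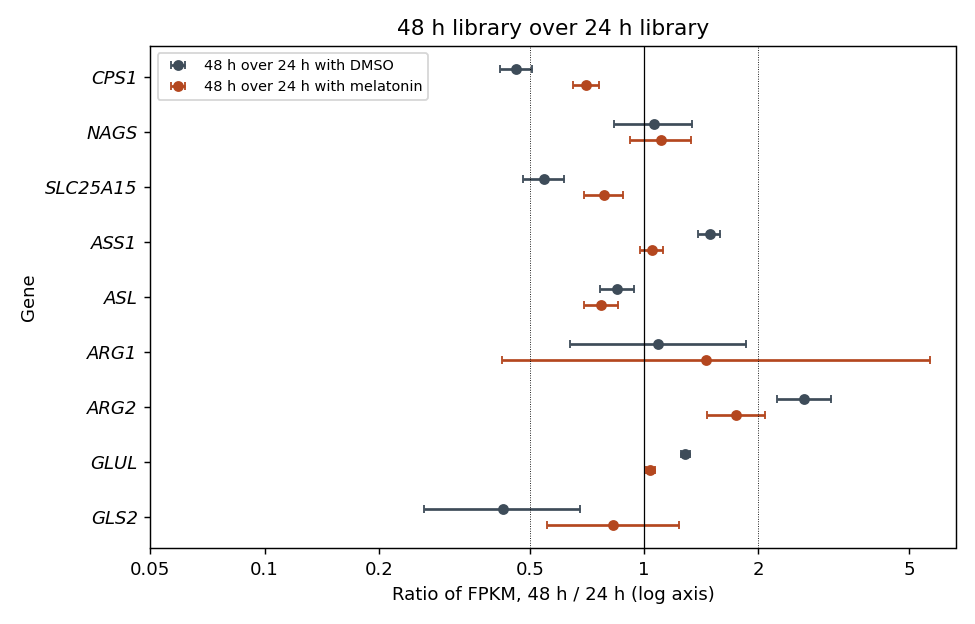
Ratio of FPKM at 48 h to FPKM at 24 h (log axis) within DMSO and within melatonin for 9 of the 10 genes, with 95% exact conditional intervals of the reads and dotted lines at 2-fold. With DMSO, ARG2 lies above 2 and CPS1 and GLS2 below 0.5, and with melatonin no gene passes 2-fold.

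CPS1 and ARG2 were the members with an FPKM of at least 1 in all libraries and a range of at least 1 on the log2(FPKM + 1) scale. Over these 4 libraries the protein-coding genes nearest to CPS1 were LARS2, PBK and GLO1, at Euclidean distances of 0.023, 0.026 and 0.047 between values centred on each gene's mean. LARS2, a mitochondrial leucyl-tRNA synthetase, was at 12 and 12.8 at 24 h and 5.93 and 9.29 at 48 h. Nearest to ARG2 were LPAR6, ARGLU1 and PGF, at 0.073, 0.111 and 0.114. LPAR6, a receptor for lysophosphatidic acid, was at 4.40 and 4.17 at 24 h and 11 and 6.96 at 48 h. The search ran over 19846 genes with 4 values each, and it describes likeness of pattern in these libraries only.

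Partner genes of the cycle were taken from 4 lists of 81 genes in all. In the list of nitrogen supply, 0 of 15 tested genes changed 2-fold with melatonin at either time, beside 4.35% and 5.72% of all genes, and the median was -0.02 at 24 h and -0.11 at 48 h. Its most abundant genes were GPT2, GLUD1 and GOT1. GLUD1, which frees ammonia from glutamate in mitochondria, was at 94.2 in DMSO and 67.8 in melatonin at 24 h, and at 81.2 and 52.8 at 48 h. GOT1, the cytosolic aspartate aminotransferase, was at 38.4 and 57.7 at 24 h and 33.7 and 44.6 at 48 h. GPT2, an alanine aminotransferase, was at 62.4 and 68.1, then 86.4 and 79.7. CA5A, the mitochondrial carbonic anhydrase that supplies bicarbonate to CPS1, is named here after its values were seen, as is ASNS, the asparagine synthetase. CA5A was at 5.06 and 3.04 at 24 h and 5.11 and 2.37 at 48 h, a log2 fold change of -0.58 and -0.86. ASNS was at 1.12 and 1.6 at 24 h and 4.0 and 1.78 at 48 h, a log2 fold change of 0.29 and -0.85. At 48 h both passed 2-fold by the plain ratio and on TPM, as did 16.3% and 13.5% of all genes tested. SDS of the same list, with 10 reads in DMSO and 2 in melatonin, passed by the plain ratio but not on TPM.

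In the list of ornithine, arginine and proline metabolism, 0 of 16 tested genes changed 2-fold at either time, beside 4.35% and 5.72% of all genes. At 24 h 14 of them were above 0, with a median of 0.14 beside 0.02 over all genes, and at 48 h 8 were above and 8 below. The share of all genes above 0 was not computed. For all genes with at least 50 reads in both libraries of 24 h, the median log2 ratio was 0.04 as deposited and 0.22 on TPM. OAT, which converts ornithine to glutamate semialdehyde, was at 13.3 and 14.8 at 24 h and 20.0 and 16.8 at 48 h. PYCR1 was at 98.0 and 104, then 87.7 and 87.2, and ALDH18A1 at 109 and 86.1, then 84.6 and 79.5. Both act in proline synthesis. SAT1, which acetylates polyamines, was at 41.5 and 58.7, then 104 and 128, and so was higher at 48 h than at 24 h with either treatment.

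The last of the metabolic lists held transport and use of glutamine and ammonia. At 24 h 0 of its 17 tested genes changed 2-fold, where 1.42% of all genes were higher and 2.93% lower. At 48 h 5 of 18 fell and 0 rose 2-fold, where 3.32% of all genes fell and 2.39% rose. The 5 were SLC38A5, SLC1A2, SLC7A6, RHBG and SLC3A2. RHBG, an ammonium transporter that in liver is found with GLUL around the central vein, went from 36.4 in DMSO to 16.1 in melatonin, on 2702 and 1210 reads. SLC38A5, a glutamine transporter, went from 38.6 to 12.8, and SLC1A2, a glutamate transporter, from 10.1 to 3.17. SLC3A2, the heavy chain shared by several amino acid exchangers, went from 151 to 69.0, and its partner SLC7A6 from 14.2 to 5.67. At 24 h RHBG was at 31.5 and 18.1, SLC38A5 at 27.0 and 16.0, SLC1A2 at 3.96 and 1.86 and SLC7A6 at 8.38 and 4.52, each short of 2-fold on the log2(FPKM + 1) scale. By the plain ratio SLC1A2 was past 2-fold at 24 h too. SLC3A2 differed from them, at 91.0 and 106. The list's median was 0.04 at 24 h and -0.29 at 48 h.

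Among regulators of hepatocyte amino acid genes, 0 of 20 tested genes changed 2-fold at 24 h, beside 4.35% of all genes, and 2 of 20 fell at 48 h, beside 3.32%. NR1H4, the bile acid receptor FXR, went from 14.3 to 4.33 at 48 h and was at 12.4 and 5.84 at 24 h, a log2 fold change of -0.97. LGR5, a Wnt target that marks pericentral hepatocytes, went from 55.5 to 25.1 at 48 h and was at 22.2 and 18.5 at 24 h. HNF4A, the nuclear receptor that maintains hepatocyte identity, was at 59.5 and 53.7, then 34.9 and 43.8. CTNNB1 was at 100 and 87.6, then 61.1 and 63.7, and CEBPB at 54.8 and 73.5, then 100 and 60.8. The medians of the list were -0.05 and -0.12.

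**Figure D4:**
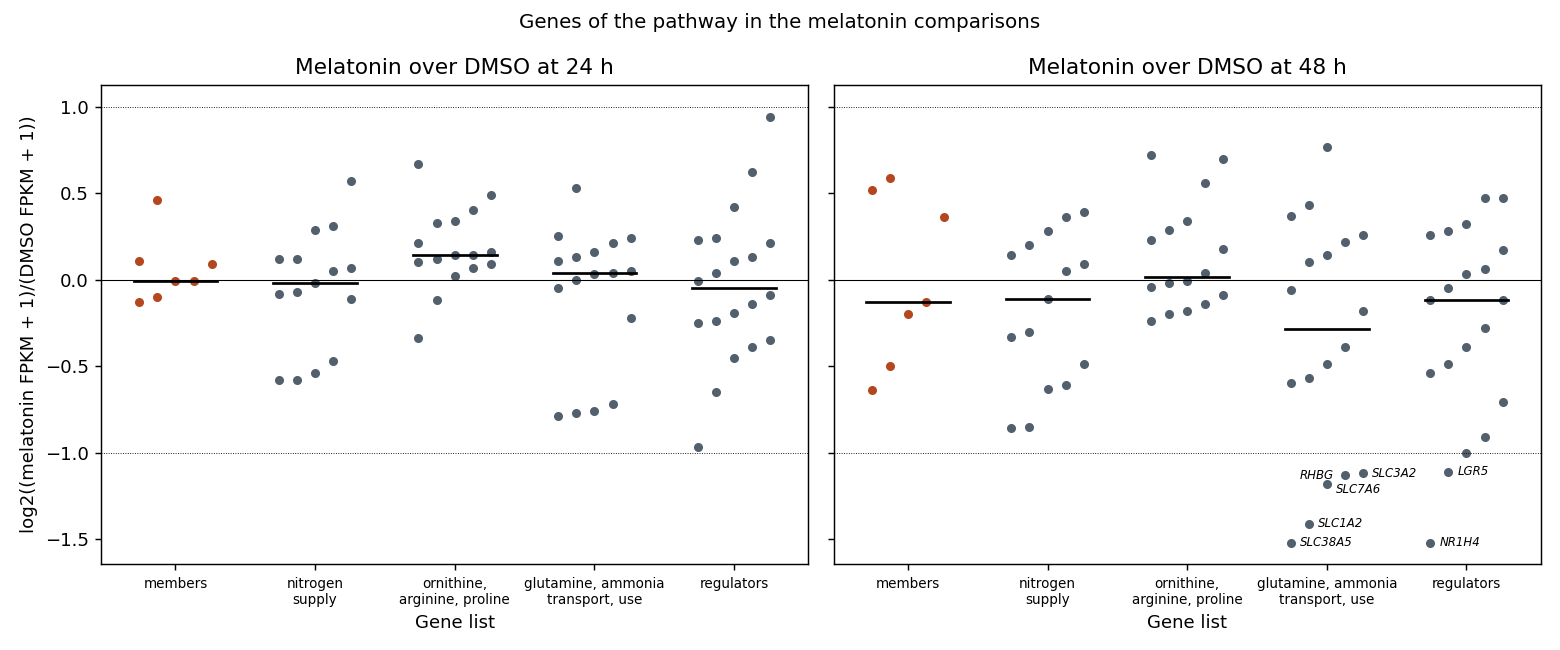
Log2((melatonin FPKM + 1)/(DMSO FPKM + 1)) at 24 h and 48 h for the members and the 4 lists of partner genes, 1 point per gene that reached an FPKM of 1 in 1 library or both. Black bars are medians and dotted lines mark 2-fold. No gene passes 2-fold at 24 h, and the 7 named genes fell past it at 48 h.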

How the data were processed

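Polyadenylated RNA of HepG2 cells was sequenced as paired-end reads. The authors mapped the reads to hg38 with MapSplice and took expression from Cufflinks, per their methods. The submitters' processing notes also name TopHat2 2.0.9, Bowtie2 2.0.6, Cuffdiff 2.1.1 and Cufflinks 2.1.1, with no roles. The authors deposited FPKM per gene, and a gene length in bp whose method is not stated. The annotation release is not given in the sources used here. Reads were recovered from FPKM and length, and came out whole for 100% of nonzero entries (tolerance 0.01 read).

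From these, exact Poisson intervals of levels and exact conditional intervals of ratios were computed (95%). The interval of a difference between log2 ratios used the sum of reciprocal reads. A gene was tested where at least 1 library of the pair reached an FPKM of 1, and called at 1 or more in size of log2((A + 1)/(B + 1)). No p-value was used in the main calls. Alternatives were a pseudocount of 0.1, no minimum, a minimum FPKM of 5, a 1.5-fold threshold, median centring, TPM, other library sizes and protein-coding genes only. A further alternative kept genes past 2-fold that also had an adjusted p under 0.05 in an exact binomial test between libraries. That p covers counting error only and does not compare conditions. Added after seeing the data were the plain ratio with at least 10 reads and the canonical transcript length. Named from each partner list were genes past 2-fold with melatonin, the 3 most abundant where fewer than 3 passed, and OAT. One further gene of that rule is not reported here. Members and lists were chosen with earlier results of these data known. Scripts were tested on simulated data. Windows before gene starts came from RefSeq on GRCh38.p14, and exons from GENCODE 44. Python 3.11, numpy 2.4.6, pandas 2.3.3 and scipy 1.17.1 were used.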

Additional observations from a re-analysis of the deposited data

Results flagged for a closer look

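The ratio of melatonin to DMSO differed between 24 h and 48 h beyond counting error for 6 members, as the log2 ratio of 48 h less that of 24 h. The difference was 0.62 for CPS1, 0.53 for SLC25A15 and 0.96 for GLS2, which had a higher ratio at 48 h, though the interval of GLS2 covered 0 on TPM. It was -0.51 for ASS1, -0.60 for ARG2 and -0.30 for GLUL, which had a lower one. Each time has 1 library per treatment, so the interval compares these libraries and a difference between cultures was not tested. For each of these 6 members the DMSO library of 48 h held the lowest or the highest FPKM of all libraries. A melatonin response and a departure of that 1 library cannot be told apart here. The share of mitochondrial reads also differed between the libraries of 24 h and 48 h, and its part in these values was not tested.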

How the results depend on the processing

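No paired analysis was possible because each condition has 1 library and the labels give no replicate numbers, and a fit of treatment with time as a term was not run. For the same reason no library could be left out, and what depth limits most is OTC, with 8 reads at most, and ARG1 with melatonin. No result turned its direction while past a threshold, and melatonin over DMSO at 48 h kept the sign of every member under each alternative run. Below the threshold, signs at 24 h turned on TPM for SLC25A15, ASS1, ASL and ARG2, and for ASS1 and ASL on the sum of reads. In each sentence below, percentages are of all genes tested, in the order melatonin over DMSO at 24 h and 48 h, then 48 h over 24 h with DMSO and with melatonin. They were 8.89%, 12.1%, 15.0% and 8.60% with a pseudocount of 0.1, and 1.01%, 1.35%, 1.84% and 0.961% with no minimum FPKM, where every listed gene is counted. With a 1.5-fold threshold they were 11.6%, 18.7%, 23.8% and 12.8%, and on TPM 9.21%, 13.5%, 20.3% and 11.8%. Among protein-coding genes they were 0.630%, 2.39%, 4.43% and 0.925%, and by the plain ratio 10.3%, 16.3%, 17.4% and 11.4%. Genes past 2-fold that also had an adjusted p under 0.05 in the exact binomial test were 1.53% and 3.72% for melatonin over DMSO. For 48 h over 24 h with melatonin they were 1.69%. A minimum FPKM of 5 gave 1.64% for melatonin over DMSO at 24 h and 2.17% for 48 h over 24 h with melatonin. Of the members, melatonin over DMSO passed the threshold for 1 at 24 h and 1 at 48 h by the plain ratio (ARG1), for 2 at 48 h at 1.5-fold (CPS1 and ARG2) and for 1 at 48 h on TPM (ARG1). For 48 h over 24 h with DMSO it was 2 with a pseudocount of 0.1, 3 at 1.5-fold, 2 on TPM and 3 by the plain ratio, and with melatonin 1 at 1.5-fold and 1 on TPM (ARG2). In the partner lists at 24 h, a pseudocount of 0.1 gave 1 gene of glutamine and ammonia transport and 2 regulators, and 1.5-fold gave 1 gene of the ornithine list, 4 of transport and 4 regulators. TPM gave 1 regulator, and the plain ratio 1 gene of the ornithine list, 1 of transport and 3 regulators. At 48 h, a pseudocount of 0.1 gave 2 genes of nitrogen supply and 1 of the ornithine list, and 1.5-fold gave 4, 2 and, among regulators, 5. TPM gave 2 genes of nitrogen supply, and the plain ratio 3, 1 of the ornithine list and 4 regulators. Apart from what follows from each threshold, minimum or set of genes, the cause of these shifts was not tested.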
